A study of Danio rerio with 12 samples.

Results

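Blood vessel endothelial genes were followed in the caudal fin of adult zebrafish before and after amputation. The gene set was defined by 10 names, namely the receptors kdrl, kdr, flt1, flt4, tie1 and tek, the junction gene cdh5, the transcription factor fli1a, the ligand vegfaa and the secreted factor egfl7. Of the 16951 genes in the mRNA table, 5 were matched. KDR (ENSDARG00000017321), TIE1 (ENSDARG00000004105) and tek (ENSDARG00000028663) carried a listed name ignoring case, and FLI1 (ENSDARG00000054632) and VEGFA (ENSDARG00000034700) carried one without the letter of the zebrafish copy. The other 5 names, kdrl, flt1, flt4, cdh5 and egfl7, matched no row by name and were not analysed here. These names do not say whether the rows are fli1a or fli1b and vegfaa or vegfab. The label of vessel endothelium therefore rests on KDR, TIE1, tek and FLI1 in these libraries, without the junction gene cdh5 or the receptor kdrl.

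Tissue came from Ekkwill zebrafish, a laboratory line, with caudal fins that were uninjured (0 dpa, days post-amputation) or had regrown for 4 days after the outer part of the fin was cut off (4 dpa). No transgene or mutation was named for either group, and no drug other than an anesthetic. Fish ages were not given in the sources used here. Each library pooled 5 to 8 fins, so the spread between the 3 libraries of a day is a spread between pools and not between single fish. The polyA+ mRNA libraries held between 17928712 and 25223147 reads each. Because fin tissue was profiled in bulk, fewer cells of a type and less RNA per cell cannot be told apart in any level below.

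Blood vessels are lined by endothelial cells, which are guided by Vegf ligands acting on the receptor tyrosine kinases of the Vegfr family, Kdr among them. A second receptor system, formed by the receptor Tie1 and the angiopoietin receptor Tek (also called Tie2), is known for vessel remodelling and stability. Fli1 is an ETS transcription factor that acts early in the endothelial lineage. When a zebrafish fin regrows, vessels extend from the stump into the new tissue and are later remodelled into the artery and veins of each ray.

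At 4 dpa, FLI1 and TIE1 were higher than at 0 dpa, and tek, KDR and VEGFA did not pass the test. FLI1 reached a mean of 17.9 CPM (read counts scaled to a common library size, here with the adjusted library sizes that the deposited table carries) against 7.96 CPM at 0 dpa, and TIE1 8.64 CPM against 5.60 CPM. Thus 2 of the 5 genes were called, both higher, where limma called 62.1% of all genes in either direction and 31% of all genes higher, at an adjusted p (Benjamini-Hochberg over all 16951 genes) below 0.05. Their median log2 fold-change of CPM + 1 was 0.20, and that of all genes was -0.0049.

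**Figure D1:**
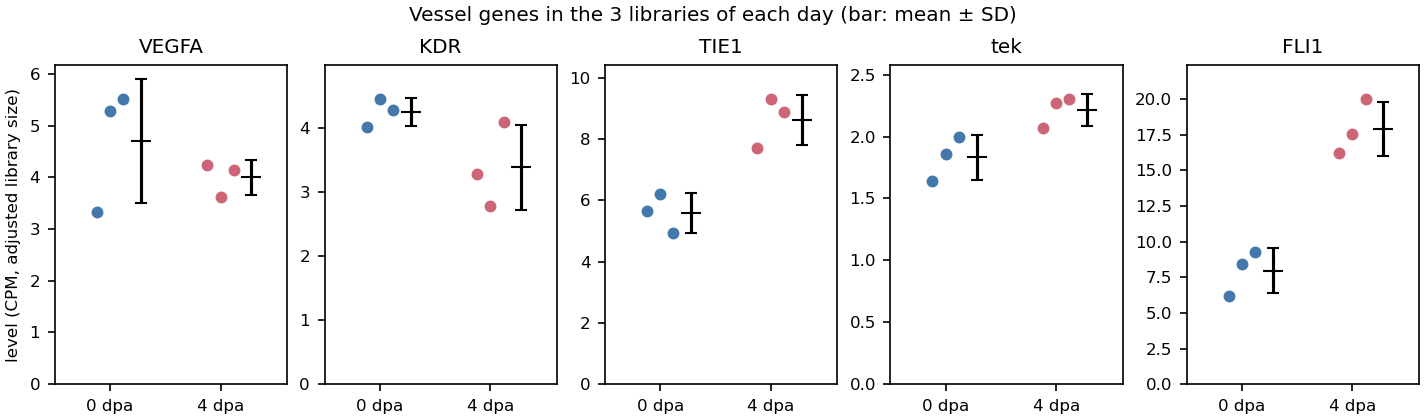
Levels of the 5 vessel genes in each mRNA library, in CPM with adjusted library sizes, at 0 dpa (blue) and 4 dpa (red), with the mean and SD of the 3 libraries of a day as a black bar. All FLI1 libraries at 4 dpa (16.2 to 19.97 CPM) lie above those at 0 dpa (6.19 to 9.26 CPM), TIE1 and tek also separate, and KDR and VEGFA overlap.

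FLI1 had 117, 182 and 190 reads in the 0 dpa libraries and 439, 340 and 521 in the 4 dpa libraries. Its level was 6.19, 8.44 and 9.26 CPM at 0 dpa and 16.2, 17.6 and 19.97 CPM at 4 dpa. The days did not overlap, and the lowest FLI1 library was replicate 1 of 0 dpa. The ratio of mean CPM was 2.25, and the log2 fold-change was 1.11 (SE 0.15, n = 3 libraries per day, limma adjusted p = 0.000375). Without replicate 1 of 0 dpa the log2 fold-change of FLI1 was 0.96 and limma still called it. In zebrafish embryos fli1a also marks neural crest derivatives and blood lineage cells, so FLI1 is not a measure of endothelium alone.

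TIE1, which binds no angiopoietin by itself and modulates Tek, was covered by 107, 134 and 101 reads in the uninjured libraries and by 209, 180 and 232 in the regenerating ones. Its level was 5.66, 6.22 and 4.92 CPM at 0 dpa and 7.72, 9.30 and 8.89 CPM at 4 dpa. All 4 dpa libraries were above all 0 dpa libraries. The ratio of mean CPM was 1.54, with a log2 fold-change of 0.57 (SE 0.13, n = 3 libraries per day, limma adjusted p = 0.00477), and the lowest value with any one library left out was 0.49.

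The angiopoietin receptor gene tek was the most thinly covered of the vessel genes, with 31, 40 and 41 reads before amputation and 56, 44 and 60 after it. Its level was 1.64, 1.86 and 2.00 CPM at 0 dpa and 2.07, 2.27 and 2.30 CPM at 4 dpa. The days separated by a narrow margin, between 2.00 and 2.07 CPM, and 68.1% of all genes likewise had days that did not overlap, as did 3 of the 5 vessel genes. With a log2 fold-change of 0.20, SE 0.12 and a 95% interval from -0.07 to 0.48, tek did not pass (limma adjusted p = 0.169). When libraries were scaled to total reads instead, tek was called higher, with a log2 fold-change of 0.39 and limma adjusted p = 0.0191. On that scale the median log2 fold-change of all genes was 0.24.

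KDR, a Vegf receptor gene, drew 76, 96 and 88 reads from the 0 dpa libraries and 89, 54 and 107 from the 4 dpa libraries. Its level was 4.02, 4.45 and 4.29 CPM at 0 dpa and 3.29, 2.79 and 4.10 CPM at 4 dpa. Replicates 1 and 2 of 4 dpa lay below all 0 dpa libraries, and replicate 3 fell within their range. The log2 fold-change was -0.25 (SE 0.14, 95% interval from -0.57 to 0.07, limma adjusted p = 0.155), and without replicate 3 of 4 dpa it was -0.37 with adjusted p = 0.0552. Scaled to total reads it was -0.03.

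VEGFA, which encodes the ligand of the Vegf receptors, drew 63, 114 and 113 reads from the uninjured libraries and 115, 70 and 108 from those at 4 dpa. The levels were 3.33, 5.29 and 5.51 CPM at 0 dpa and 4.25, 3.62 and 4.14 CPM at 4 dpa. The 0 dpa values spanned the 4 dpa values, because replicate 1 of 0 dpa was the lowest library and the other 0 dpa libraries were the highest. The log2 fold-change of VEGFA was -0.15 (SE 0.17, 95% interval from -0.54 to 0.24, limma adjusted p = 0.464), it was -0.33 without replicate 1 of 0 dpa (adjusted p = 0.0656), and its sign turned to 0.08 with total read scaling. KDR, FLI1, tek and VEGFA all had their lowest 0 dpa level in replicate 1.

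Ratios of reads within a library do not depend on how libraries are scaled, so they were used to ask whether the vessel genes moved together. Transcript lengths differ between genes, so only the change of each ratio was read and not its size. There was 0.650, 0.527 and 0.463 KDR read per FLI1 read at 0 dpa, and 0.203, 0.159 and 0.205 at 4 dpa. KDR reads per TIE1 read were 0.710, 0.716 and 0.871 at 0 dpa and 0.426, 0.30 and 0.461 at 4 dpa. Both ratios were lower in each 4 dpa library than in each 0 dpa library, with mean log2 changes of -1.53 for KDR over FLI1 and -0.97 for KDR over TIE1.

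FLI1 also separated from VEGFA, from 1.86, 1.596 and 1.68 FLI1 reads per VEGFA read at 0 dpa to 3.82, 4.86 and 4.82 at 4 dpa, a log2 change of 1.39. Within the Tie pair, TIE1 reads per tek read were 3.45, 3.35 and 2.46 before amputation and 3.73, 4.09 and 3.87 after it. The log2 change of this ratio was 0.35, beside -0.97 for KDR over TIE1, and the difference between the pairs was not tested. Of the 10 pairs, 8 had ratios that did not overlap between the days, beside 68.6% of all pairs of genes with a read in every library, and KDR over VEGFA and tek over VEGFA overlapped. With 3 libraries on each side the smallest two-sided p of an exact permutation test is 0.1, which is the value of all 8 pairs (0.125 after Benjamini-Hochberg adjustment over the 10 pairs), so no pair could pass. KDR over VEGFA changed by -0.14 (exact p = 0.5) and tek over VEGFA by 0.48 (exact p = 0.2).

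The remaining genes of the pathways were taken from 7 lists, of which 66 genes were found in the table. Of these, 28 rose and 20 fell at 4 dpa and 18 did not pass, which is 72.7% called beside 62.1% of all genes. Their median log2 fold-change was 0.18.

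**Figure D2:**
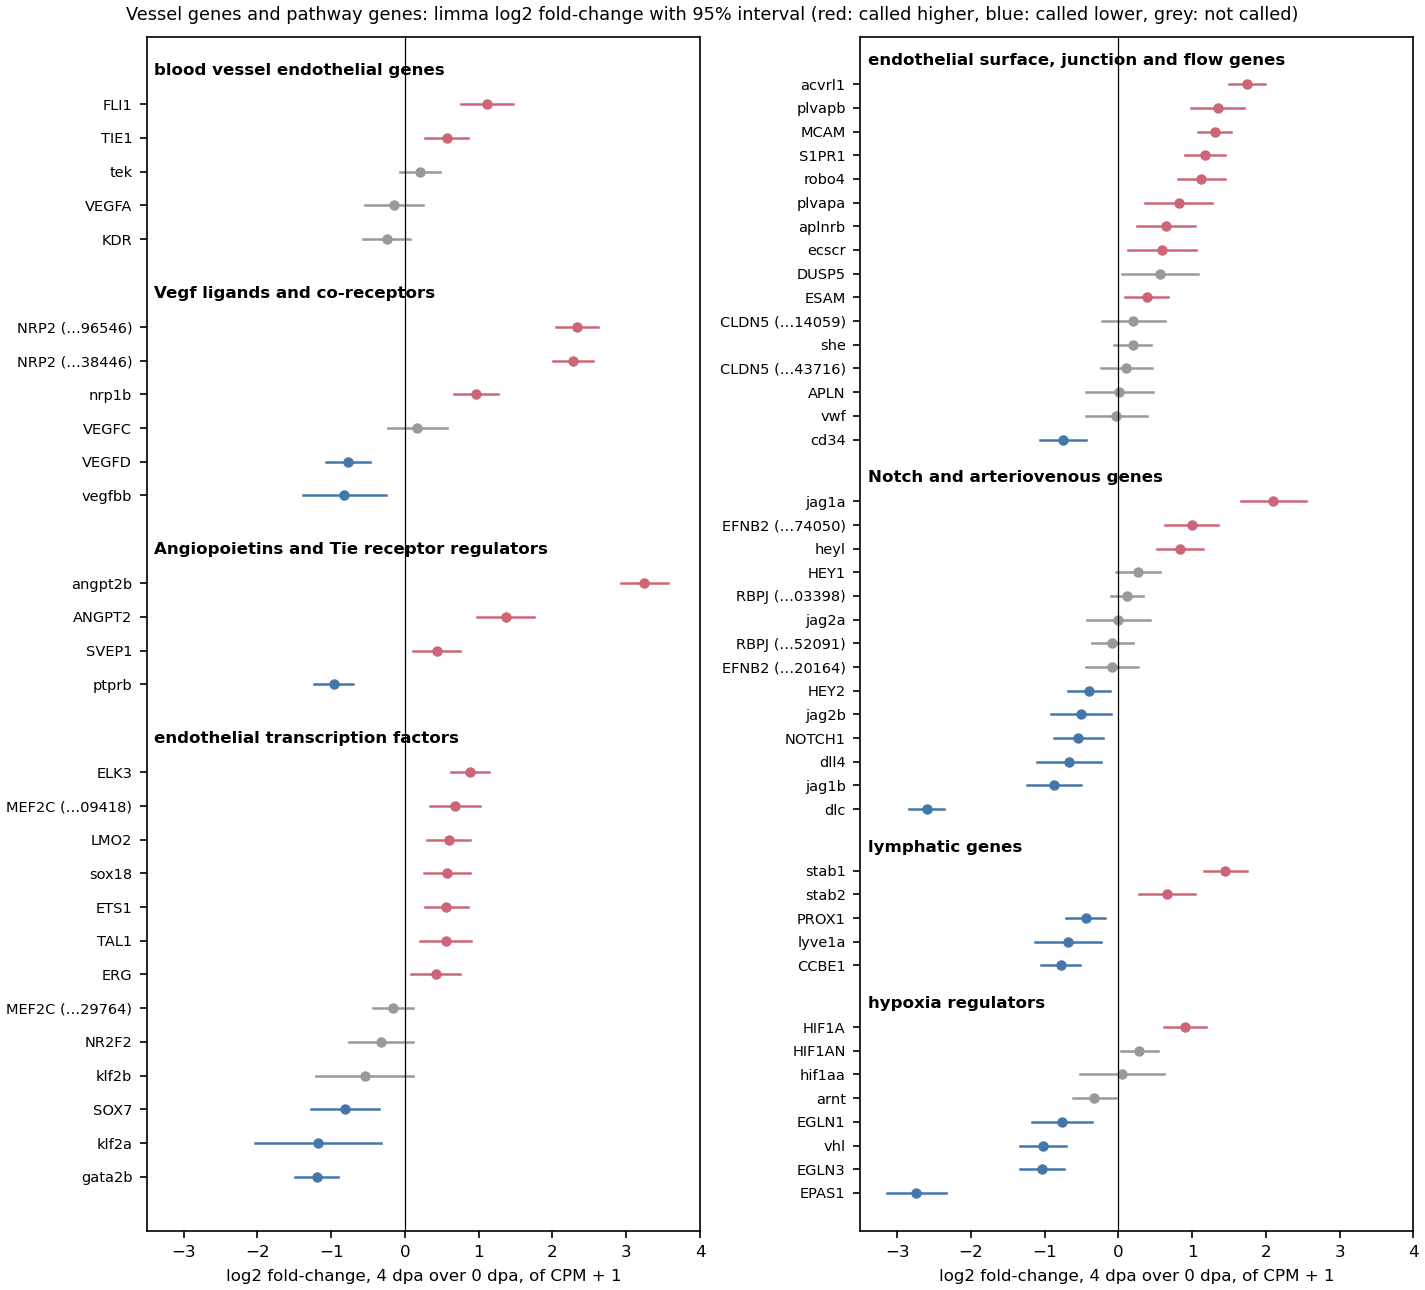
Log2 fold-change of CPM + 1, 4 dpa over 0 dpa, for the 5 vessel genes and the 66 pathway genes by list, each with its limma estimate (point) and 95% interval (line), where red is called higher, blue called lower and grey not called. The estimates run from -2.74 for EPAS1 to 3.25 for angpt2b, and the intervals of tek, VEGFA and KDR cross 0.

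Among the Vegf ligands and co-receptors, 3 of 6 genes rose, 2 fell and 1 did not pass, beside 62.1% of all genes called. Both NRP2 rows are counted among the 3. Neuropilins are co-receptors that bind Vegf ligands and semaphorins. The NRP2 row ENSDARG00000096546 lay between 5.97 and 7.56 CPM at 0 dpa and between 35.3 and 43.2 CPM at 4 dpa (log2 fold-change 2.34, SE 0.12, limma adjusted p = 2.67e-06). A second NRP2 row, ENSDARG00000038446, had nearly the same levels, from 6.92 to 8.40 CPM and from 34.9 to 42.4 CPM, and how reads were divided between these copies is uncertain. The co-receptor gene nrp1b rose from 1.74, 1.86 and 2.34 CPM to 5.28, 4.39 and 4.52 CPM (log2 fold-change 0.96). No ligand gene found here was called higher, and vegfba, pgfa and pgfb matched no row, nor did the co-receptor gene nrp1a. A second VEGFA identifier was also not among the genes found. VEGFD, whose product binds Vegf receptors in mammals, fell from 8.30, 10.6 and 10.4 CPM to 4.73, 5.68 and 5.21 CPM (log2 fold-change -0.77), and vegfbb, at 0.529, 2.13 and 1.51 CPM against 0.258, 0.207 and 0.383 CPM, also fell. The call of vegfbb (limma adjusted p = 0.0179) was lost without replicate 2 or 3 of 0 dpa (0.0527 and 0.0594) or replicate 2 of 4 dpa (0.0538). VEGFC was at 0.793, 1.16 and 1.75 CPM at 0 dpa and 1.66, 1.498 and 1.19 CPM at 4 dpa and was not called.

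Of the 6 names on the list of angiopoietins and Tie receptor regulators, angpt1 and angpt4 matched no row. All 4 genes found were called, 3 higher and 1 lower, beside 62.1% of all genes. Of these, angpt2b, ANGPT2 and ptprb had larger absolute log2 fold-changes than TIE1 and tek, a difference that was not tested. Angpt2 is an angiopoietin that binds Tek and, in mammals, can act on it as an agonist or an antagonist. The copy angpt2b had 14, 12 and 20 reads at 0 dpa and 431, 268 and 430 reads at 4 dpa, that is 0.740, 0.557 and 0.975 CPM against 15.9, 13.8 and 16.5 CPM. This was a 20.4-fold ratio of mean CPM, with a log2 fold-change of CPM + 1 of 3.25 (SE 0.14, limma adjusted p = 1.05e-06). ANGPT2 (ENSDARG00000014946) rose as well, from 0.423, 1.02 and 0.585 CPM to 2.84, 3.82 and 3.03 CPM. In the opposite direction, ptprb, which encodes the receptor phosphatase that acts on Tek in mice, fell from 9.15, 8.54 and 8.29 CPM to 3.51, 3.98 and 4.18 CPM (log2 fold-change -0.96, SE 0.12, adjusted p = 0.000174). SVEP1, an extracellular matrix gene, was called higher (16.7, 19.9 and 22.5 CPM against 22.7, 28.9 and 27.7 CPM, log2 fold-change 0.43, adjusted p = 0.0248). Its call was lost when replicate 1 or 2 of 0 dpa or replicate 2 or 3 of 4 dpa was left out, with limma adjusted p = 0.0601, 0.0544, 0.0779 and 0.0785.

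Of 13 endothelial transcription factor genes, 7 rose, 3 fell and 3 did not pass, beside 62.1% of all genes called. The names etv2, gata2a, sox17, hhex and npas4l matched no row. The median log2 fold-change of the 13 genes, 0.42, turned to -0.16 when genes with a mean level below 1 on the log2(CPM + 1) scale were dropped. The ETS genes ELK3 and ETS1 rose, as FLI1 did. ELK3 rose from 26.1, 23.9 and 26.6 CPM to 49.3, 41.2 and 51.8 CPM (log2 fold-change 0.88, limma adjusted p = 0.000238). MEF2C (ENSDARG00000009418), a MADS box factor gene, rose from 2.75, 3.71 and 3.80 CPM to 5.39, 5.58 and 6.94 CPM (log2 fold-change 0.68), and the second MEF2C row, ENSDARG00000029764, was not called (-0.16, and 0.10 with total read scaling). The SoxF genes split, since sox18 rose (log2 fold-change 0.57) and SOX7 fell from 10.6, 8.07 and 7.17 CPM to 3.18, 4.49 and 5.56 CPM (log2 fold-change -0.82, adjusted p = 0.00746).

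The flow-responsive gene klf2a, which many other cells also express, was at 1348, 3723 and 4009 CPM at 0 dpa and at 1454, 1071 and 1065 CPM at 4 dpa. It was called lower (log2 fold-change -1.18, SE 0.37, limma adjusted p = 0.0235), yet replicate 1 of 0 dpa lay within the 4 dpa range. The klf2a call was lost without replicate 2 of 0 dpa (adjusted p = 0.0726), replicate 3 of 0 dpa (0.0851), replicate 2 of 4 dpa (0.0712) or replicate 3 of 4 dpa (0.075), with total read scaling (0.0563) and with quantile normalization (0.128).

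Surface, junction and flow genes of endothelium moved mostly upwards, with 9 of 16 higher, 1 lower and 6 not called, beside 31% of all genes called higher. The median log2 fold-change of this list was 0.58. Its names pecam1, clec14a, aplnra and eng matched no row. Leading the list was acvrl1, a Bmp receptor gene of endothelial cells also known as Alk1, which rose from between 19.98 and 24.2 CPM to between 68.7 and 82.3 CPM (log2 fold-change 1.74, SE 0.11, limma adjusted p = 5.4e-06). The fenestral diaphragm gene plvapb rose from 44.6, 69.9 and 51.3 CPM to 127, 150 and 137 CPM (log2 fold-change 1.34). MCAM, an adhesion molecule gene, rose from a mean of 14.9 to 37.7 CPM, and the sphingosine-1-phosphate receptor gene S1PR1 from 7.13 to 17.0 CPM. The guidance receptor gene robo4 rose from 1.27, 1.21 and 0.975 CPM to 4.14, 3.82 and 2.99 CPM (log2 fold-change 1.13). The sialomucin gene cd34 was the gene that fell, from 25.6, 30.8 and 29.2 CPM to 13.4, 17.6 and 18.2 CPM (log2 fold-change -0.75). The 6 not called were vwf (log2 fold-change -0.03), APLN (0.01), she (0.19), DUSP5 (0.57) and both CLDN5 rows (0.20 and 0.11).

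Notch signalling separates arteries from veins and restrains sprouting. Of 14 Notch and arteriovenous genes, 3 rose, 6 fell and 5 did not pass, which is 64.3% called beside 62.1% of all genes. Their median log2 fold-change of -0.08 turned to 0.16 (5 higher, 2 lower) with total read scaling. Under that scaling the median of all genes was 0.24. Of the 6 Notch ligand genes, jag1a was called higher, jag1b, dlc, dll4 and jag2b were called lower, and jag2a was not called. Outside the ligands, heyl (log2 fold-change 0.84) and the EFNB2 row ENSDARG00000074050 (0.99) were called higher. NOTCH1 (-0.54) and HEY2 (-0.40) were called lower, and the second EFNB2 row was not called (-0.09). The name ephb4a matched no row. jag1a rose from 7.82, 9.74 and 8.97 CPM to 36.1, 33.2 and 55.7 CPM (log2 fold-change 2.10, limma adjusted p = 4.06e-05). Its paralog jag1b fell from 89.3, 91.0 and 117 CPM to 50.4, 44.1 and 65.0 CPM (-0.87), and dlc fell from 33.7, 36.4 and 34.6 CPM to 4.95, 5.32 and 4.33 CPM (-2.60). Many of these ligands also act outside vessels. The ligand gene of sprouting and arterial cells, dll4, fell from 7.19, 12.6 and 10.7 CPM to 5.21, 5.63 and 6.59 CPM (log2 fold-change -0.67, adjusted p = 0.0144), a call lost with total read scaling (0.0676) and without replicate 1 of 4 dpa (0.0512). That of jag2b (log2 fold-change -0.51, adjusted p = 0.0338) was lost with total read scaling (0.285) and without replicate 2 or 3 of 0 dpa (0.055 and 0.108) or replicate 1 or 2 of 4 dpa (0.0867 and 0.0939).

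All 5 lymphatic genes found were called, 2 higher and 3 lower, beside 62.1% of all genes. Of the 8 names on this list, lyve1b, mrc1a and pdpn matched no row. The scavenger receptor genes stab1 and stab2 rose, stab1 from 1.48, 1.44 and 1.90 CPM to 5.46, 6.20 and 6.40 CPM (log2 fold-change 1.45) and stab2 from 4.34, 6.26 and 5.26 CPM to 7.24, 10.6 and 8.66 CPM (0.66). The hyaluronan receptor gene lyve1a was lower (17.2, 28.7 and 20.6 CPM against 10.5, 15.3 and 13.4 CPM, log2 fold-change -0.69), as was PROX1, the transcription factor gene of lymphatic identity (3.86, 4.27 and 3.80 CPM against 2.62, 2.48 and 2.72 CPM, -0.44). Both calls were lost with total read scaling (limma adjusted p = 0.0723 for lyve1a and 0.104 for PROX1), and that of lyve1a also without replicate 1 of 4 dpa (0.0548). Some macrophages express stab1 in mammals, so the gene is not restricted to vessels.

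Hif transcription factors raise the transcription of Vegf genes when oxygen is low. The list of hypoxia regulators holds Hif subunits and the genes that act on them. Of its 8 genes found here, 1 rose, 4 fell and 3 did not pass, which is 62.5% called beside 62.1% of all genes. EPAS1, which encodes the Hif2a subunit known for its place in endothelium, fell from 15.4, 17.1 and 17.9 CPM to 1.14, 1.498 and 2.38 CPM (log2 fold-change -2.74, SE 0.18, limma adjusted p = 6.91e-06). A second EPAS1 identifier was not among the genes found. HIF1A (ENSDARG00000034293) rose from 94.8, 86.1 and 83.7 CPM to 167, 138 and 188 CPM (0.90). The copy hif1aa had means of 1.81 CPM at 0 dpa and 1.77 CPM at 4 dpa and was not called (log2 fold-change 0.05, limma adjusted p = 0.877). Of the genes whose products lead Hif subunits to degradation, vhl, EGLN1 and EGLN3 were found, and all were called lower. The level of vhl went from 8.04, 8.44 and 6.92 CPM to 2.73, 3.67 and 3.49 CPM (-1.02). The prolyl hydroxylase gene EGLN1 went from 31.5, 48.6 and 52.99 CPM to 25.7, 24.4 and 24.2 CPM (-0.76). EGLN3 went from a mean of 2.72 CPM to 0.791 CPM (-1.04). The name egln2 and further EGLN1 identifiers were not among the genes found. The VEGFA row found did not pass in these libraries, and a second VEGFA identifier was not among the genes found.

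Cell type markers were summed per library beside the vessel genes. The 5 vessel genes summed to between 20.8 and 26.3 CPM at 0 dpa and between 33.5 and 39.4 CPM at 4 dpa, and without FLI1 to between 14.6 and 17.8 CPM and between 17.3 and 19.4 CPM. The sum thus separated by day with FLI1 and overlapped without it. Both sums hold the ligand gene VEGFA. On their own, TIE1 and tek separated by day, and KDR and VEGFA overlapped.

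**Figure D3:**
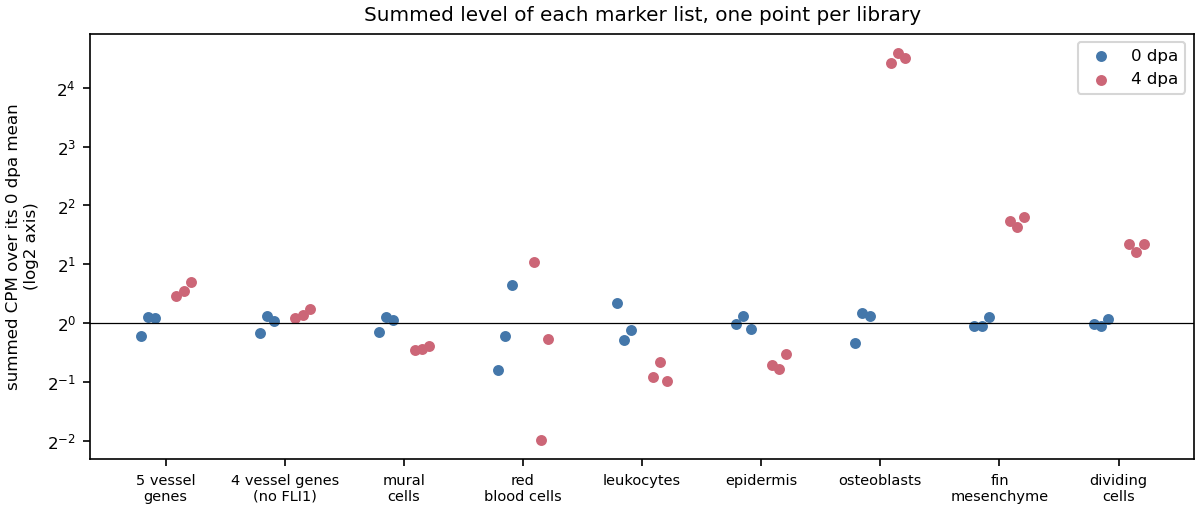
Summed CPM of the vessel genes and of each marker list per mRNA library, divided by the mean of the 0 dpa libraries, on a log2 axis, at 0 dpa (blue) and 4 dpa (red). Osteoblast, fin mesenchyme and dividing cell markers stand highest at 4 dpa, and the vessel genes without FLI1 overlap between the days.

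Mural cells are the smooth muscle cells and pericytes that wrap vessels. Of 9 genes listed for them, 7 were called lower and 2 higher, beside 31.2% of all genes called lower. With total read scaling 4 were called lower and 2 higher. Among the 7 was pdgfbb (log2 fold-change -0.55, limma adjusted p = 0.0287), a ligand gene rather than a marker of these cells. The receptor gene pdgfrb matched no row. The sum of the 9 genes went from between 795 and 947 CPM to between 645 and 675 CPM. Most of it was the TAGLN row ENSDARG00000033466, called lower (mean 680 CPM at 0 dpa, 533 CPM at 4 dpa). The second TAGLN row, ENSDARG00000045408, was called higher (mean 23.8 CPM at 0 dpa, 29.7 CPM at 4 dpa). Within this list acta2, a smooth muscle actin gene, fell from 14.3, 13.5 and 12.2 CPM to 1.07, 1.08 and 1.61 CPM (log2 fold-change -2.66), and RGS5, a pericyte gene, fell from 57.4, 78.8 and 96.6 CPM to 35.7, 33.7 and 38.6 CPM (-1.04). The pericyte gene CSPG4 rose from 3.01, 4.55 and 4.63 CPM to 7.86, 6.82 and 8.32 CPM (0.81). Of the 2 red blood cell genes found, alas2 was called higher (limma adjusted p = 0.0411), a call lost without replicate 1 or 2 of 0 dpa (0.107 and 0.114) or replicate 1 or 3 of 4 dpa (0.112 and 0.126). These genes summed to between 3.65 and 9.94 CPM at 0 dpa and between 1.602 and 13.0 CPM at 4 dpa, so the levels of these genes overlapped between the days.

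Markers of other fin tissues also moved with the day, and their counts stand beside 31% of all genes called higher and 31.2% lower. Osteoblast genes were called higher in 4 of 5 (226 to 325 CPM against 6178 to 6937 CPM, or 74.3 to 104 CPM against 310 to 375 CPM without COL10A1), fin mesenchyme genes in 5 of 5 (82.4 to 91.2 CPM against 265 to 298 CPM) and cell division genes in 10 of 10 (331 to 363 CPM against 797 to 873 CPM). Leukocyte genes were lower in 5 of 8 and higher in 1 (552 to 849 CPM against 340 to 424 CPM), and epidermis genes were lower in 2 of 4, with a median that turned positive under quantile normalization (44117 to 51788 CPM against 27747 to 33208 CPM). Most of the epidermis sum was krt5 (mean 37481 CPM at 0 dpa) and krt4 (8785 CPM), both called lower. TP63 and epcam were not called. No marker on these lists was at 0 reads in any library. The part of these cell types in the changes of FLI1, TIE1 and the pathway genes was not tested.

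The scaling between days bears on all of these values. The adjusted library sizes were 0.855 to 0.908 times the read totals at 0 dpa and 1.080 to 1.103 times at 4 dpa. With total read scaling the median log2 fold-change of all genes was 0.24, and 7518 genes were called higher and 3595 lower, against 5249 and 5281 with the adjusted sizes. Under that scaling the log2 fold-changes were 1.37 for FLI1 and 0.81 for TIE1. The shift of 0.24 is not taken off these or any other values given with total read scaling.

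The vessel microRNA miR-126 lies within egfl7 in one of its copies, and was read from the small RNA table of the same design. In the RefSeq annotation of assembly GRCz12tu, mir126b (chromosome 21, 8586450 to 8586552) lies inside the span of egfl7 (chromosome 21, 8574689 to 8611570), and mir126a lies on chromosome 8 (13125237 to 13125337). In zebrafish and mice miR-126 is known for keeping Vegf signalling active and vessels intact. The mature sequences are shown because they decide which copy a row can stand for, with the seed, bases 2 to 8, in capitals.
miR-126a-5p: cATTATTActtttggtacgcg
miR-126b-5p: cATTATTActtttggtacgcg
miR-126a-3p: tCGTACCGtgagtaataatgca
miR-126b-3p: tCGTACCGtgagtaatagtgca
The 5p arms are identical, so the single row in the table, miR-126a-5p, can come from either copy. The 3p arms share their seed and differ by A18G, counted from the 5′ end of miR-126a-3p, and were not among the 148 miRNAs of the table. Their seed differs from that of the 5p arms. The row therefore covers the 5p arm only, and the role given above was not tied to an arm here.

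miR-126a-5p had 981, 1880 and 712 tags at 0 dpa and 547, 626 and 517 tags at 4 dpa. After the shift by a trimmed mean of log ratios its log2 fold-change was 0.07 (SE 0.17, 95% interval from -0.32 to 0.45, limma adjusted p = 0.78 over 148 miRNAs, of which 42.6% were called). The interval leaves room for a small change in either direction. As a share of all tags in the table it was 0.164, 0.180 and 0.189% at 0 dpa and 0.0705, 0.0649 and 0.0697% at 4 dpa, so the days did not overlap on that scale, and scaling to the total of the table gave a log2 fold-change of -1.38 with limma adjusted p = 0.00016. As a share of the tags other than miR-21, which held most tags of the table at 4 dpa, miR-126a-5p was 0.188, 0.202 and 0.208% at 0 dpa and 0.196, 0.225 and 0.202% at 4 dpa, and the days overlapped (two-sided exact permutation p = 0.5). The direction for miR-126a-5p thus followed the scaling.

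**Figure D4:**
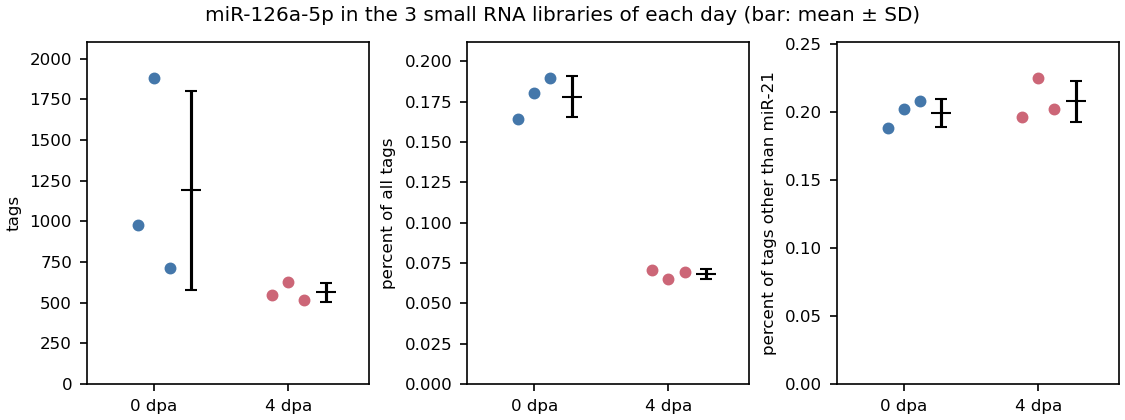
miR-126a-5p in each small RNA library at 0 dpa (blue) and 4 dpa (red) as tags, as a percent of all tags in the table and as a percent of the tags other than miR-21, with the mean and SD of 3 libraries as a black bar. The days separate in the first and second panels, and overlap in the third, at 0.188 to 0.208% and 0.196 to 0.225%.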

How the data were processed

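Total RNA of zebrafish caudal fins was sequenced as 6 polyA+ mRNA and 6 small RNA libraries, 3 per day and kind. The mRNA values deposited by the authors were log2(CPM + 1) of Ensembl (version 76) genes, where CPM is the read count relative to an adjusted library size. Divided by the CPM value of 1 read per library, 100% of values came out whole within 0.1. The small RNA values deposited by the authors were log2(tag count + 1), unscaled. The submitters' processing notes name Trimmomatic, RSEM, edgeR and Zv9, without their roles for these tables. Names from a table of gene symbols matched 13664 of the 16951 identifiers, and rows without a name were not searched.

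The log2 values of every library were moved by its trimmed mean log ratio to the average library (30% of log ratios and 5% of mean levels trimmed at each end), and each table was fitted alone with limma 3.58.1 in R 4.3.3 (lmFit, and eBayes with a trend), 4 dpa against 0 dpa. P-values were Benjamini-Hochberg adjusted over all rows, with a threshold of 0.05, and all adjusted p-values for genes come from limma. Fold-changes are of CPM + 1, which understates those of low genes. Reads were simulated with few genes changed, all of them at a mean level of at least 2, and the same dispersion for every gene. The procedure recovered 39 of 100 genes changed 1.5-fold and 98 of 100 changed 2-fold, and called 9 of 16751 unchanged genes. At a mean level of 1.59, tek lies below the simulated minimum of 2, so these rates do not cover it. In the data 62.1% of genes were called and the adjusted library sizes differed by day. Neither was simulated, so the rates need not hold for the other genes of these libraries. Alternatives were the values as deposited, total reads, quantile normalization, a pseudocount of 0.25, a minimum mean level of 1 (3 for miRNAs), limma-voom on the recovered reads, a replicate block and each library left out. For miR-126a-5p, scaling without miR-21 was added after seeing the data. The text names all matched members and, per pathway list, up to 4 called genes of the largest change with a mean level of at least 2. Other list genes were chosen after their values were seen. They are vegfbb, VEGFC, ANGPT2, ETS1, sox18, robo4, cd34, jag2a, jag2b, the second MEF2C, hif1aa, the uncalled surface, junction and flow genes and the cell type markers. NOTCH1, HEY2, heyl, both EFNB2 rows and EGLN3 were also chosen in this way. The members and lists were chosen with earlier results of these data known. Computations also used Python 3.11.15 with pandas 2.3.3 and SciPy 1.17.1.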

Additional observations from a re-analysis of the deposited data

How the results depend on the processing

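FLI1 and TIE1 were called higher under all 13 alternatives, with log2 fold-changes from 0.96 to 1.37 and from 0.49 to 0.81. Total read scaling added tek (0.39) and turned VEGFA to 0.078 and the second MEF2C row to 0.10. Leaving out 1 library moved KDR between -0.37 and -0.15, tek between 0.16 and 0.25 and VEGFA between -0.33 and -0.05, none of them called. miR-126a-5p turned to -0.96 without a shift (limma adjusted p = 0.175) and to -1.38 with the total of the table, ranged from -0.014 (without replicate 2 of 4 dpa) to 0.15 with a library left out, and was 0.06 with the total less miR-21. The uncalled jag2a turned from -0.0022 to 0.22 with total reads, 0.010 with quantile normalization, 0.0023 with the level minimum and 0.018 with limma-voom, and ranged from -0.11 to 0.19 with a library left out. Of 27 named pathway genes, 22 kept their call throughout, and none reversed. Genes called in the whole table ran from 9098 to 10166 with a library left out. Replicate numbers gave no clear sign of paired samples (correlations of deviations 0.17, -0.02 and 0.15 for mRNA, -0.48, -0.03 and 0.13 for small RNA). With the replicate block, 10486 genes were called against 10530 without it, 2 vessel genes either way, and miR-126a-5p stayed at 0.07. Among the vessel genes tek had the fewest reads, 31 to 60 per library, and pathway genes named here had as few as 4 (vegfbb).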

Other observations

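The genes closest to TIE1 in pattern over the 6 mRNA libraries were WDFY1, PTBP2, NEMP1, STX6 and CYTH1. TIE1 took the place of cdh5, which matched no row, and was chosen after the values were seen. After each gene's mean was taken off its log2 level, the root mean square difference from TIE1 was 0.04 for WDFY1, 0.05 for PTBP2, 0.06 for NEMP1, 0.06 for STX6 and 0.07 for CYTH1. Of 9810 named candidate genes, 46 lay within 0.1 of TIE1, so the order over 6 libraries is a description only.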
